A study of Mus musculus with 8 samples.

Results

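The genes described here make, desaturate and lengthen fatty acids. They are Srebf1, Acly, Me1, Acaca, Acacb, Fasn, Scd1, Scd2, Elovl5 and Elovl6. Every non-control probe whose gene name in the array files is one of these symbols was taken, which gave 17 probes for 10 genes, out of 15184 genes tested. The samples are brains of mice deprived of food for 17 h and brains of fed mice, with 4 single-colour arrays per group and 8 arrays in all. The comparison asks how brain transcript levels differ between fasted and fed mice. The labels give no genotype, strain, sex, age or number of mice per sample, and a p-value here therefore reflects only how these arrays vary, part of which may be technical.

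Fatty acids are built from acetyl-CoA. ATP citrate lyase (Acly) makes cytosolic acetyl-CoA from citrate, acetyl-CoA carboxylase (Acaca, Acacb) turns it into malonyl-CoA, and fatty acid synthase (Fasn) joins these units into palmitate with NADPH that malic enzyme (Me1) helps to supply. Elongases (Elovl5, Elovl6) lengthen the chain and stearoyl-CoA desaturases (Scd1, Scd2) put in a double bond. In liver and fat the transcription factor SREBP1 (Srebf1) is known to switch these genes on after feeding, and in brain the same enzymes feed membrane and myelin lipids.

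On each array 24567 to 27220 probes, or 62.3% to 69% of 39429, were well above background and no spot was saturated. Levels are given as log2 signal minus the 75th percentile of the same array, called scaled log2 here, so 0 is the level of a fairly bright probe and a difference of 1 is a 2-fold change. A level may be set against another array's level of the same probe only. Differences are fasted minus fed, tested with limma and adjusted over all 26066 kept probes, with a threshold of 0.05. Of 15184 genes, 2835 passed (18.7%), with 1451 higher in fasted brain (9.56%) and 1384 lower (9.11%). Of all kept probes, 4417 passed (16.9%), and in 4148 genes (27.3%) the fasted and fed values did not overlap. The middle 50% of genes had a difference between -0.10 and 0.09, and the median over all genes was -0.01. Both slides carried 2 fasted and 2 fed arrays, so a difference is given within each slide as well. Fasted arrays sat at positions 1 and 3 and fed arrays at positions 2 and 4 of each slide, so fasting and position cannot be told apart.

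The neuron markers fixed for this tissue were bright on every array, with a mean scaled log2 level of 4.73 to 4.82 over 6 genes in fasted brain and 4.64 to 4.76 in fed brain, and 0 of 6 passed the test. Because these are bulk samples, fewer cells of a type and less RNA per cell cannot be told apart.

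Across the 10 genes, fasted brain had a higher level of Acacb and a lower level of Elovl6, and the other 8 did not pass the test. Both changes were modest, 1.38-fold up and 1.28-fold down. The counts, 1 gene higher and 1 lower of 10, stand beside the 9.56% and 9.11% of all genes. The median difference over the members was -0.07, with 8 below zero and 2 above, while 51.9% of all genes were below zero. In 2 of the 10 genes, Acacb and Elovl6, the groups did not overlap, against 27.3% of all genes.

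**Figure D1:**
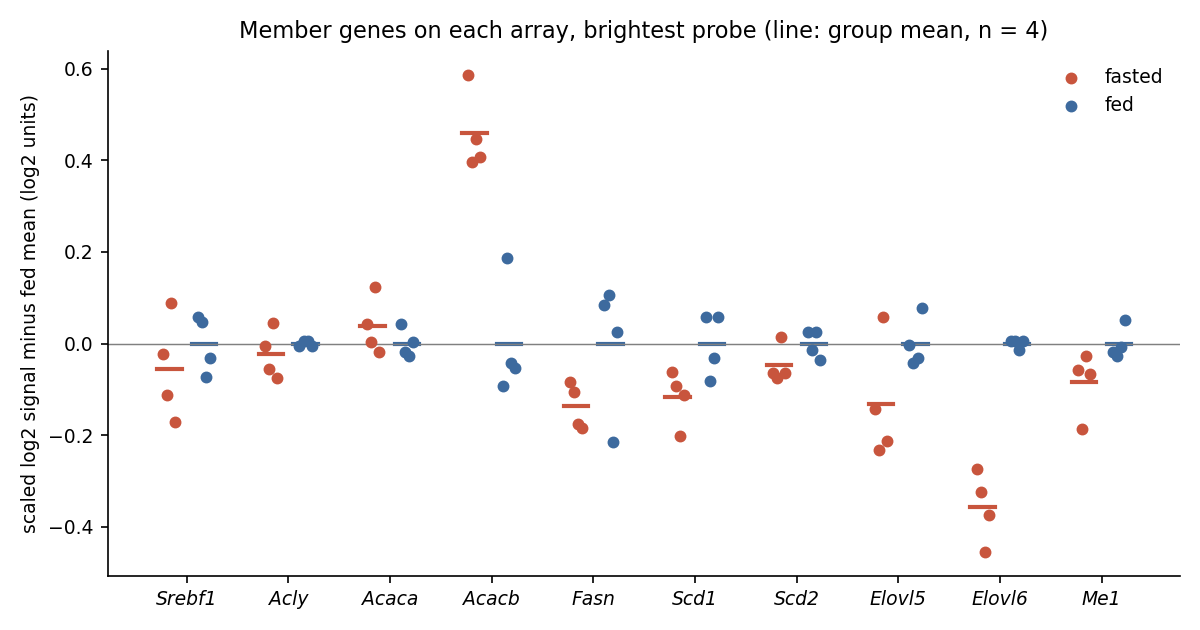
Scaled log2 signal of the brightest kept probe of each gene on each array, minus the mean of the 4 fed arrays (log2 units, y axis), for 10 genes (x axis). Points are arrays, short lines are group means with n = 4. All 4 fasted points lie above all 4 fed points for Acacb and below them for Elovl6, and the groups overlap for the other 8 genes.

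Upstream sequences are shown for some of the genes, not for Me1, where only a dimmer probe passed. They are given because the pathway is known for control at its promoters. Those of Elovl6 and Acacb, which passed, and of Fasn and Elovl5, which passed only when 1 array was left out, are the 250 bases before the annotated start, from RefSeq in build GRCm38.p6, 5' to 3' on the strand of the gene. Capitals mark matches on either strand to TCACNCCA (the sterol regulatory element core), CCAAT (the NF-Y box), CACGTG (an E-box) or GGGCGG (the GC box bound by Sp1).
Elovl6, chr3:129532136-129532385, plus strand: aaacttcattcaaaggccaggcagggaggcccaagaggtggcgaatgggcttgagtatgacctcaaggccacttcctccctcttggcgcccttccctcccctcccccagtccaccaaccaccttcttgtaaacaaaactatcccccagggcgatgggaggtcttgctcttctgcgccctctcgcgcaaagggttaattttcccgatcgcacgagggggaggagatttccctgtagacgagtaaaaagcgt
Acacb, chr5:114165268-114165517, plus strand: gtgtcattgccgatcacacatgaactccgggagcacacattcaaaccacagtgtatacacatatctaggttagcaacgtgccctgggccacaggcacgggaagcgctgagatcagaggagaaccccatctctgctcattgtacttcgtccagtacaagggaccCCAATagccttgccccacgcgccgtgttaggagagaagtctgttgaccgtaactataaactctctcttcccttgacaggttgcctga
Fasn, chr11:120824548-120824797, minus strand: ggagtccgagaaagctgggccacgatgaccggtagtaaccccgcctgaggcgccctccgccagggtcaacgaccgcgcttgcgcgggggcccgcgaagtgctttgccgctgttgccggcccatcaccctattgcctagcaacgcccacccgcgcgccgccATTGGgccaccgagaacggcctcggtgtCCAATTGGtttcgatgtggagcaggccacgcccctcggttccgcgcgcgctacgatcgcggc
Elovl5, chr9:77917115-77917364, plus strand: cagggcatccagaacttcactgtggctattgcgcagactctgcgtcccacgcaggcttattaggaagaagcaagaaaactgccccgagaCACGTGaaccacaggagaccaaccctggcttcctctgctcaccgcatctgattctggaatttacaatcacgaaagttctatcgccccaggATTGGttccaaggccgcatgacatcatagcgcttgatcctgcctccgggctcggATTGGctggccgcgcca

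Promoters were held for 8 of the 10 genes, 11 promoters in all, since Srebf1 and Me1 have several starts. The window before Elovl6 holds none of the 4 motifs. The Acacb window has 1 CCAAT, 87 bases before the start. Fasn has CCAAT 3 times, at 90, 62 and 59 bases before the start, the last 2 on opposite strands and overlapping in the run CCAATTGG. Elovl5 has CCAAT at 71 and 17 bases and an E-box at 161 bases before the start. Over the 11 promoters, CCAAT was found in 6 (5 genes), the GC box in 4 (3 genes), the E-box in 1 and the sterol element core in 0. Of 32851 promoters of the same length in the table, 33.8%, 32.7%, 6.02% and 3.67% hold these motifs. A match describes the letters only.

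Srebf1 encodes SREBP1, a membrane-bound factor that is cut and released to the nucleus to drive lipogenic genes. Its probe (A_55_P2002557, NM_011480, chr11:60012664-60012723 in mm9, the build of the array design) read -2.33, -2.42, -2.22 and -2.48 in fasted replicates 1 to 4 and -2.25, -2.26, -2.38 and -2.34 in fed replicates 1 to 4. Fasted replicates 1 and 3 lay within the fed range or above it, and the groups overlap. The difference was -0.06 (SE 0.06, 95% confidence interval -0.20 to 0.08, adjusted p = 0.558). It was -0.12 on slide 1 and 0.01 on slide 2, so its sign is not settled. The exon under each probe, and so which transcript form it reads, was not analysed here.

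Acly was read by a bright and a dim probe. The bright one (A_55_P2025954, NM_001199296, chr11:100337674-100337733 in mm9) gave 3.27, 3.22, 3.32 and 3.20 in fasted and 3.27, 3.28, 3.28 and 3.27 in fed brain. The fed arrays lay within 0.01 of each other and the fasted arrays on both sides of them. The difference was -0.02 (SE 0.03, interval -0.10 to 0.06, adjusted p = 0.706), and the interval leaves room for a fall of at most 1.07-fold. The dim probe (A_55_P2082914, NM_134037, chr11:100365518-100365577) differed by -0.10 (SE 0.11, adjusted p = 0.594), with -0.20 on slide 1 and 0.00 on slide 2.

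Me1 makes cytosolic NADPH from malate and was the gene whose probes gave different calls. All 3 probes were lower in the mean of fasted brain, by 0.09, 0.16 and 0.12 in order of brightness. The brightest (A_55_P2009952, NM_001198933, chr9:86475077-86475136 in mm9) read 1.70, 1.57, 1.73 and 1.69 in fasted and 1.74, 1.73, 1.75 and 1.81 in fed brain. Fasted replicate 3 reached the lowest fed array, and this probe did not pass (difference -0.09, SE 0.04, adjusted p = 0.214). The next probe (A_55_P2171413, chr9:86475215-86475274) read 0.65, 0.64, 0.70 and 0.71 in fasted and 0.79, 0.82, 0.83 and 0.88 in fed brain. Here every fasted array was below every fed array, and the level fell by 0.16 (SE 0.03, adjusted p = 0.0198), which is 1.11-fold lower (95% confidence interval 1.06 to 1.18). The fall was 0.16 on slide 1 and 0.15 on slide 2 in size. The call was lost without fasted replicate 1 (adjusted p = 0.0565) or fasted replicate 2 (0.0562), with median scaling (0.0845), with normexp background correction (0.0538) and with no filter (0.057). The dimmest probe (A_55_P2016842, chr9:86480571-86480630) read 0.26, 0.17, 0.27 and 0.27 against 0.40, 0.34, 0.34 and 0.34. Its groups did not overlap, and its difference of -0.12 (SE 0.04) had an adjusted p of 0.0614. With the mean of the 3 probes the gene differed by -0.12 at an adjusted p of 0.0496.

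Acetyl-CoA carboxylase exists as a cytosolic form that serves synthesis (ACC1, Acaca) and a form at the mitochondrial surface (ACC2, Acacb), whose malonyl-CoA restrains the entry of fatty acids into mitochondria through CPT1. Acacb rose in fasted brain. Its probe (A_55_P2019054, NM_133904, chr5:114700702-114700761 in mm9) read -1.74, -1.93, -1.88 and -1.92 in fasted and -2.42, -2.14, -2.37 and -2.38 in fed brain. All fasted arrays were above all fed arrays, and fed replicate 2 stood above the other 3 fed arrays. The mean was -1.87 ± 0.09 (SD, n = 4) in fasted and -2.33 ± 0.13 in fed brain. The difference of 0.46 (SE 0.07, adjusted p = 0.00605) is 1.38-fold (95% confidence interval 1.23 to 1.54), or 37.8% more. It was 0.45 on slide 1 and 0.48 on slide 2, and 3.3% of all genes differed by as much in either direction. The other Acacb probe (A_55_P2104532, chr5:114699684-114699743) was not well above background on any of the 8 arrays, so the rise rests on 1 probe.

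Acaca was measured by 4 probes, of which 3 were kept. The brightest (A_55_P2019058, NM_133360, chr11:84215093-84215152 in mm9) read 2.11, 2.07, 2.19 and 2.05 in fasted and 2.11, 2.05, 2.04 and 2.07 in fed brain. Fasted replicate 3 was the highest array and the rest were mixed. The difference was 0.04 (SE 0.04, interval -0.05 to 0.13, adjusted p = 0.546). A probe of similar brightness (A_55_P2084706, BC023946) differed by 0.02 (SE 0.04, adjusted p = 0.787). The array design places that probe on chromosome 12 (10166955 to 10167014), while the other Acaca probes lie on chromosome 11, so its match to the gene is uncertain. A dim probe (A_55_P2121392, chr11:84009021-84009080) differed by 0.12 (SE 0.05, interval 0.01 to 0.24, adjusted p = 0.131; 0.04 with normexp background correction), and the dimmest (A_55_P2084703, chr11:84211638-84211697) stayed below that limit on all 8 arrays.

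The response of both carboxylases was compared within each array, as the scaled log2 of Acacb minus that of Acaca. This gave -3.85, -4.00, -4.07 and -3.96 in fasted and -4.53, -4.19, -4.42 and -4.44 in fed brain. The fasted arrays were all above the fed arrays. The size of such a value reflects the probes and only its change between groups is read. The change was 0.42 (SE 0.09, interval 0.12 to 0.68), so Acacb moved 1.34-fold relative to Acaca. For pairs, the SE comes from the variances of both groups, not from limma. The interval holds the changes that the permutation test below, before adjustment, does not reject at 0.05. An exact two-sided permutation test over the 8 arrays gave p = 0.0286, the smallest that 4 against 4 allows, and 0.0429 after adjustment over the 3 pairs of related enzymes compared. The change was 0.44 on slide 1 and 0.41 on slide 2. With normexp background correction the change was 0.32 and did not pass in the exact permutation test (adjusted p = 0.0857). Over 3 pairs, a pair passes only if another pair also reaches the smallest p. The adjusted 0.0857 is what the smallest p gives when no other pair reaches it. Leaving out any 1 array also ended the call. With the replicate number as a block the adjusted p was 0.188, in an exact test that cannot reach 0.05.

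Fasn builds palmitate and is the classical lipogenic gene. Its probe (A_52_P100252, NM_007988, chr11:120667666-120667725 in mm9) read -1.54, -1.56, -1.63 and -1.64 in fasted and -1.37, -1.35, -1.67 and -1.43 in fed brain. The fasted arrays lay below 3 of the fed arrays, while fed replicate 3 was the lowest of all 8. The difference was -0.13 (SE 0.07, interval -0.30 to 0.03, adjusted p = 0.241), with -0.18 on slide 1 and -0.08 on slide 2. Without fed replicate 3 it was -0.21 with an adjusted p of 0.0281, so that array decides the call.

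**Figure D2:**
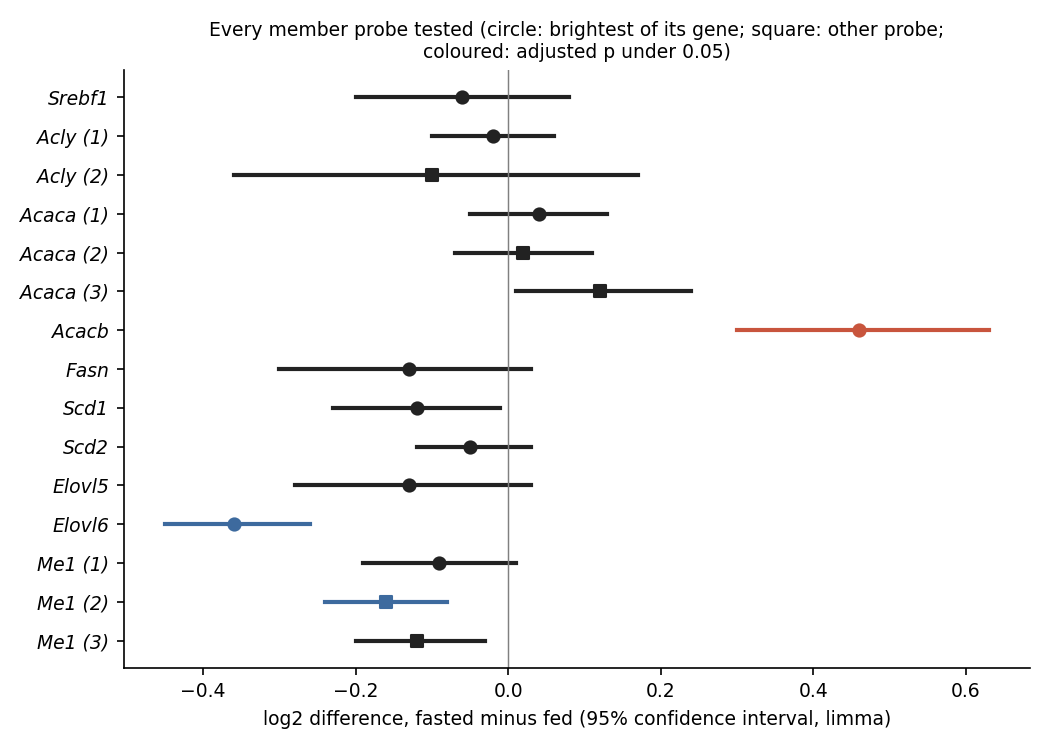
Difference between fasted and fed brain (log2, x axis) with its 95% confidence interval from limma, for the 15 kept probes of the 10 genes (y axis, numbered by brightness within a gene). Circles are the brightest probe of a gene, squares its other probes, and colour marks an adjusted p under 0.05. Acacb at 0.46 and Elovl6 at -0.36 stand away from the other probes, which lie between -0.16 and 0.12.

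Over the 15 kept probes, 1 was higher, 2 were lower (Elovl6 and the second Me1 probe) and 12 did not pass, beside 16.9% of all kept probes in either direction. Of the 15, 4 were above zero and 11 below, with a median of -0.09. The groups did not overlap in 4 probes, those of Acacb and Elovl6 and the dimmer pair of Me1, beside 24.8% of all kept probes.

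The stearoyl-CoA desaturases make oleate and palmitoleate, Scd2 being the main form of brain and Scd1 that of liver and fat. Scd1 (A_52_P682382, NM_009127, chr19:44469387-44469446 in mm9) read 1.34, 1.31, 1.20 and 1.29 in fasted and 1.46, 1.32, 1.37 and 1.46 in fed brain. Only fasted replicate 1 reached into the fed range. The difference was -0.12 (SE 0.05, interval -0.23 to -0.01, adjusted p = 0.119), with -0.07 on slide 1 and -0.17 on slide 2. Scd2 (A_51_P129464, NM_009128, chr19:44381024-44381083) read 5.26, 5.25, 5.34 and 5.26 in fasted and 5.35, 5.31, 5.35 and 5.29 in fed brain. The fasted arrays other than replicate 3 were below all fed arrays. The difference was -0.05 (SE 0.03, interval -0.12 to 0.03, adjusted p = 0.368). Its interval reaches a fall of 1.09-fold at most.

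Within arrays, Scd2 minus Scd1 was 3.92, 3.94, 4.14 and 3.97 in fasted and 3.89, 3.99, 3.98 and 3.83 in fed brain, and the groups overlap. The change was 0.07 (SE 0.06, interval -0.06 to 0.31, exact permutation p = 0.371, adjusted 0.371). A difference in response between the 2 desaturases was not detected, and the interval still allows one of 0.31.

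Elovl6 lengthens palmitate to stearate and Elovl5 acts on polyunsaturated chains and palmitoleate. Elovl6 fell in fasted brain. Its only probe (A_51_P463440, NM_130450, chr3:129341248-129341307 in mm9) read 1.22, 1.17, 1.04 and 1.12 in fasted and 1.50, 1.50, 1.48 and 1.50 in fed brain. All fasted arrays lay below the fed arrays, which were within 0.02 of each other. The mean was 1.14 ± 0.08 (SD, n = 4) in fasted and 1.49 ± 0.01 in fed brain. The difference of -0.36 (SE 0.04, adjusted p = 0.00245) is 1.28-fold lower (95% confidence interval 1.2 to 1.37). The level fell by 22%. It was -0.31 on slide 1 and -0.41 on slide 2, and 6.14% of all genes differed by as much in either direction.

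Elovl5 (A_51_P505493, NM_134255, chr9:77832205-77832264 in mm9) read 1.40, 1.31, 1.60 and 1.33 in fasted and 1.54, 1.50, 1.51 and 1.62 in fed brain. Fasted replicate 3 lay among the fed arrays and the other 3 below them. The difference was -0.13 (SE 0.07, interval -0.28 to 0.03, adjusted p = 0.224), and without fasted replicate 3 it was -0.19 with an adjusted p of 0.0289. Within arrays, Elovl6 minus Elovl5 was -0.19, -0.15, -0.56 and -0.21 in fasted and -0.04, -0.01, -0.03 and -0.12 in fed brain. Fasted replicate 3 was the lowest by far, and all fasted arrays were below all fed arrays. The change was -0.23 (SE 0.10, interval -0.55 to -0.03, exact permutation p = 0.0286, adjusted 0.0429), so Elovl6 fell 1.17-fold relative to Elovl5. It was -0.15 on slide 1 and -0.31 on slide 2, and -0.13 without fasted replicate 3. The call was lost when any 1 array was left out. With normexp it was -0.21 and did not pass (adjusted p = 0.129 in the exact permutation test). With the replicate block the adjusted p was 0.188, where again the exact test cannot reach 0.05.

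**Figure D3:**
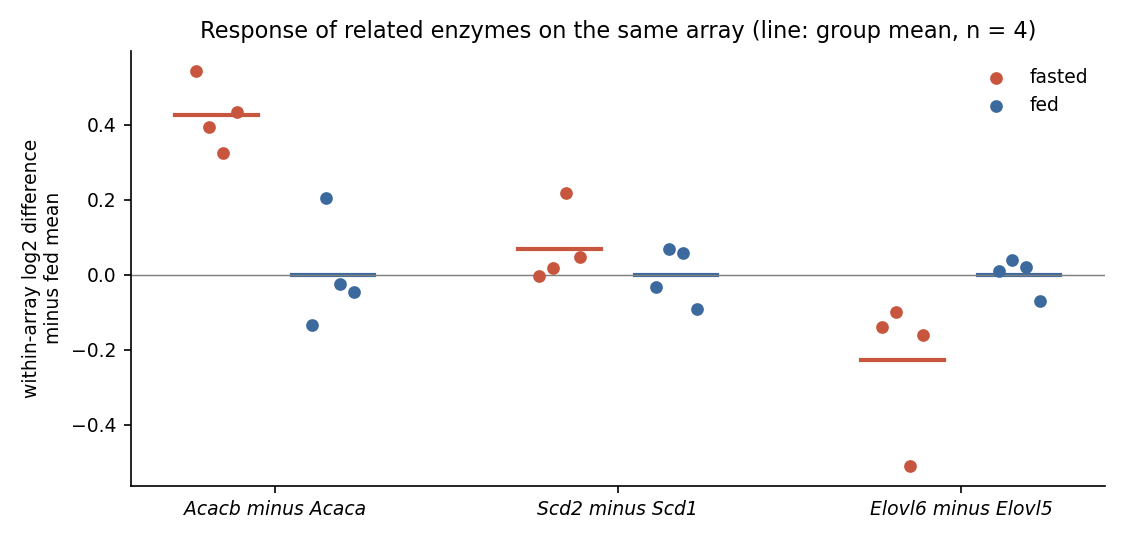
Within-array log2 difference of related enzymes, minus the mean of the 4 fed arrays (y axis), for 3 pairs (x axis). Points are arrays and lines are group means with n = 4. The fasted arrays lie above the fed arrays for Acacb minus Acaca (change 0.42), below them for Elovl6 minus Elovl5 (change -0.23, with fasted replicate 3 far below the rest), and among them for Scd2 minus Scd1.

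**Figure D4:**
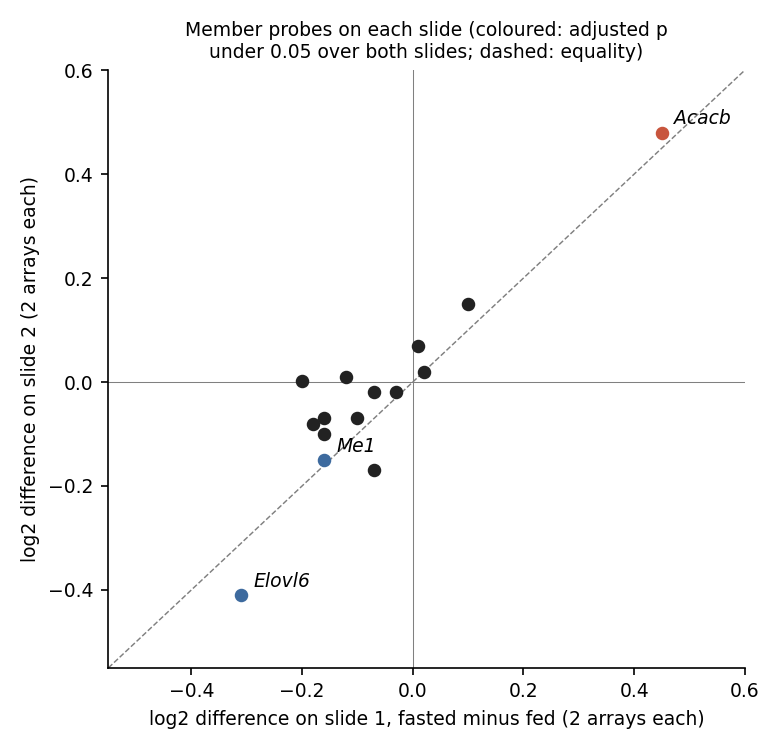
Difference between fasted and fed brain (log2) of each of the 15 kept probes on slide 1 (x axis) and slide 2 (y axis), each from 2 fasted and 2 fed arrays, with the line of equality dashed. Acacb (0.45 and 0.48) and Elovl6 (-0.31 and -0.41) lie near the line and apart from the other probes.

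Another 59 measured genes of fatty acid metabolism were described beside the members. Of these, 10 were higher in fasted brain, 5 lower and 44 did not pass, with a median difference of 0.00, and the groups did not overlap in 18. Over all genes, 9.56% were higher, 9.11% lower and 27.3% without overlap. At the brightest probe of each gene, all of the 59 lay between -0.34 and 0.27, inside the range from Elovl6 to Acacb.

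Genes that supply precursors and NADPH numbered 14 of the 15 listed (Olah was not kept), with 3 higher, 2 lower, 9 not passing and a median of 0.02. Mlycd, malonyl-CoA decarboxylase, which removes the product of the carboxylases, rose by 0.23 (adjusted p = 0.0193). It did not pass with normexp background correction (0.125), without fasted replicate 1 (0.0549) or without fasted replicate 2 (0.0523). Mid1ip1, whose protein MIG12 promotes polymerisation of acetyl-CoA carboxylase, fell by 0.27 (SE 0.04, adjusted p = 0.00374). It read 3.08, 3.13, 3.13 and 3.13 in fasted and 3.44, 3.40, 3.32 and 3.39 in fed brain, with no overlap. Pgd, which makes NADPH in the pentose phosphate pathway, rose by 0.19 (adjusted p = 0.0169). Me3, the mitochondrial NADP malic enzyme, rose by 0.26 at its brightest probe (adjusted p = 0.00882), while its other probes differed by -0.13 (0.499) and 0.19 (0.0631).

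Among the other elongation genes, 10 were measured (Elovl3 was not kept). Their brightest probes gave 1 higher, 0 lower and a median of -0.03. Elovl1 differed by -0.08 (adjusted p = 0.268) at its brightest probe, but by -0.18 (0.0117) at its other probe. Hacd2, a dehydratase of the elongation cycle, rose by 0.23 (adjusted p = 0.0151), with 0.21 (0.104) and 0.11 (0.179) at its other probes. The reductases of the cycle did not pass. Hsd17b12, the ketoacyl reductase, differed by 0.12 (0.169) and Tecr, the enoyl reductase, by -0.13 (0.0773), passing without fasted replicate 3 (0.0475). Hacd4 differed by -0.15 (0.206), with -0.17 (0.142) at its other probe, and passed without fed replicate 4 (0.0381).

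Of the other desaturation genes, 8 were measured (Scd4 was not kept). Their brightest probes gave 0 higher, 1 lower and a median of -0.05. Scd3 differed by -0.08 (adjusted p = 0.582) at its brightest probe, and by 0.35 (0.0113) and -0.07 (0.755) at its other probes. Cyb5b differed by 0.04 (0.495) at its brightest probe, but by -0.18 (0.0331) at its other probe. Fads2, the delta-6 desaturase of polyunsaturated fatty acids, fell by 0.24 (SE 0.06, adjusted p = 0.0364). It read -0.63, -0.73, -0.66 and -0.74 in fasted and -0.35, -0.42, -0.62 and -0.42 in fed brain, where fed replicate 3 came close to the fasted arrays. The call was lost when any array other than fed replicate 3 was left out (adjusted p 0.0602 to 0.088), with the replicate block (0.0583) and with no filter (0.081), and its other probe differed by -0.18 (0.0861). Fads6, a dim probe, differed by -0.34 (0.0987), but by -0.11 (0.389) with normexp background correction. Fads3 differed by 0.09 (0.18), with -0.01 (0.895) at its other probe, and Cyb5a, the electron donor of the desaturases, by -0.05 (0.317).

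The regulators, 12 genes, gave 2 higher, 2 lower and a median of -0.02 at their brightest probes. Nr1h3 differed by -0.06 (adjusted p = 0.303) at its brightest probe and by -0.12 (0.0354) at its other probe. Usf2 differed by -0.03 (0.692) at its brightest probe and by 0.18 (0.0489) at its other probe. Mbtps1 and Mbtps2, the site-1 and site-2 proteases that release SREBPs, rose by 0.17 (adjusted p = 0.0339) and 0.27 (0.00998). Mbtps1 did not pass with the replicate block (0.0806), with no filter (0.0812) or without fasted replicate 1 or 2 or fed replicate 1, 2 or 3 (0.0606 to 0.0802). Mbtps2 did not pass with normexp background correction, where its difference was 0.12 (0.187). Srebf2, the SREBP of cholesterol synthesis, fell by 0.33 (SE 0.07, adjusted p = 0.0232). It read -1.52, -1.50, -1.29 and -1.33 in fasted and -1.18, -1.17, -1.02 and -0.95 in fed brain, with no overlap and -0.33 and -0.32 on the 2 slides. Its call was lost without fasted replicate 1 or 2 or fed replicate 3 or 4 (0.0529 to 0.0617), with median scaling (0.0504) and with no filter (0.0541), and its other probe differed by -0.31 (0.271). Nr1h2, the liver X receptor beta, fell by 0.23 (0.0345), a call that was lost when any array other than fasted replicate 3 was left out (0.0618 to 0.0851), with median scaling (0.0919) and with no filter (0.0782).

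Among 15 genes that activate fatty acids or build glycerolipids, 4 were higher, 0 lower and the median was 0.07. Acsl1 and Acsl3, acyl-CoA synthetases, rose by 0.20 (adjusted p = 0.0142) and 0.25 (0.0249). The other Acsl1 probe differed by 0.17 and did not pass (0.142). Acsl3 did not pass with no filter (0.0592) or without fasted replicate 1, 3 or 4 or fed replicate 2 (0.0522 to 0.0648). Agpat3, an acyltransferase of phospholipid synthesis, rose by 0.22 (0.01), and Dgat2, which makes triacylglycerol, by 0.24 (0.015).

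**Figure D5:**
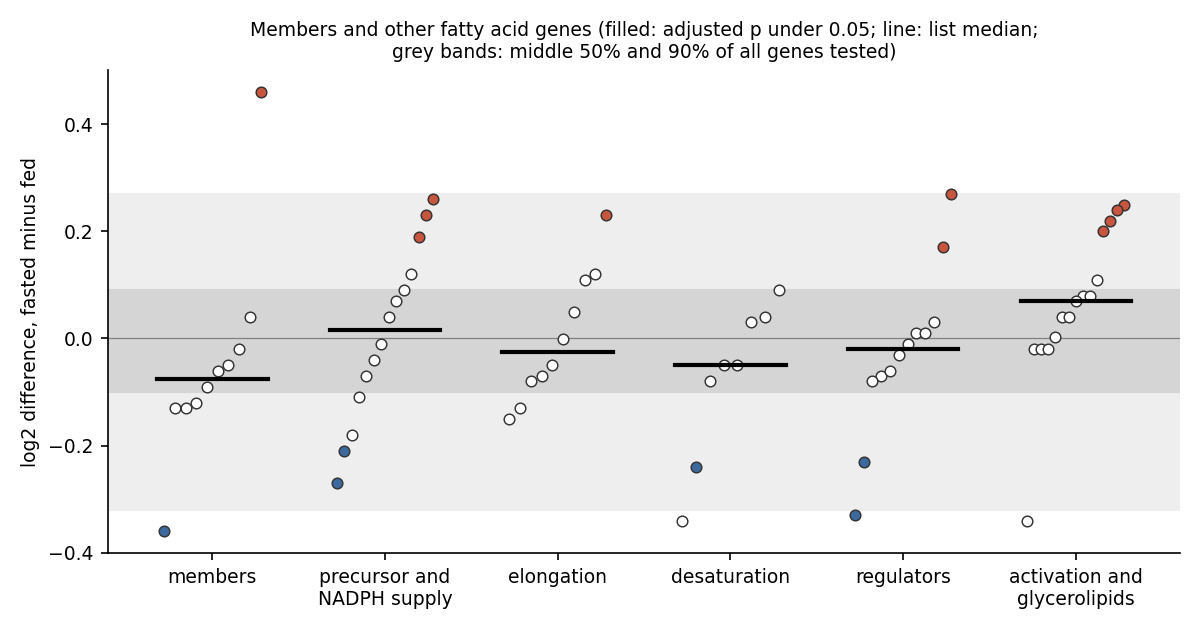
Difference between fasted and fed brain (log2, y axis) of the 10 genes and of 59 other fatty acid genes in 5 lists (x axis), ordered by size within a list. Filled points passed limma at an adjusted p under 0.05, lines are list medians, and grey bands hold the middle 50% (-0.10 to 0.09) and 90% (-0.32 to 0.27) of all genes tested. Acacb and Elovl6 lie outside the wider band, as do Srebf2, Fads6 and Acsbg2 just below it, though Fads6 was at -0.11 with normexp background correction. Acsbg2 was dim, well above background on only 2 fasted and 3 fed arrays. Its groups overlap and it did not pass (adjusted p = 0.362).

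Markers of several cell types moved in the same comparison. Of 7 oligodendrocyte markers, 0 were higher and 3 lower, among them Mag (-0.27) and Opalin (-0.79), with a mean scaled log2 level of 2.0 to 2.22 in fasted and 2.25 to 2.30 in fed brain. Of the 7, 2 were above zero: Cldn11 differed by 0.11 (adjusted p = 0.101) and Mobp by 0.30 (0.278), and another Mobp probe rose by 0.30 (0.0264). Of 6 microglia markers, 0 were higher and 4 lower, with 1.39 to 1.57 against 1.75 to 1.84. Of 6 astrocyte markers, 2 were higher and 1 lower, with 2.44 to 2.47 against 2.28 to 2.36. Gjb6 differed by 0.57 and Slc1a2 by 0.32, with 0.04 (adjusted p = 0.745) and 0.26 (0.0462) at other Slc1a2 probes. Aqp4 differed by -0.41, and by -0.60 (0.000792) at its other probe. Aldh1l1 differed by 0.13 (0.268), but by -0.37 (0.00396) at its other probe. Of 5 endothelial markers, 1 was higher (Slco1a4, 0.50, adjusted p = 0.000967) and 1 lower (Tek, -0.58, 0.0191), with -0.78 to -0.62 against -0.73 to -0.60. Of 3 markers of oligodendrocyte precursors, 1 was higher (Pdgfra, 0.25, 0.00456) and 0 lower, with 0.52 to 0.61 against 0.50 to 0.55. These moved with the fall of Elovl6 and the rise of Acacb, and their part in the result was not tested. Blood markers had 0 of 3 passing (2.37 to 3.10 against 2.37 to 3.16), and adipocyte markers Adipoq, Lep and Cfd were not kept. The 2 kept liver markers, Alb and Serpina1a, were highest in fasted replicate 3, at -1.36 and -0.80, against at most -3.10 and -2.44 in the other fasted arrays. Without that array Acacb differed by 0.47 (adjusted p = 0.0154) and Elovl6 by -0.33 (0.00392).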

How the data were processed

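Brains of fasted and fed mice were hybridised to 8 single-colour Agilent arrays (0.1 ug of total RNA each, per the labels). The deposited scanner files hold each spot's intensity, from Feature Extraction 11.0.1.1 per the file headers (10.10.1.1 per the submitters' processing notes), with detrending on. The deposited series table holds a ratio per probe, which matches the scanner values after division by a per-probe factor (spread 0.000179 on the log2 scale). What baseline this factor rests on is unknown. Medians of the table's columns were 0.97, 0.993, 0.973 and 0.987 (fasted) and 0.987, 1.02, 0.991 and 1.02 (fed). The table served as an alternative.

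Levels are log2 of the processed signal minus the array's 75th percentile (1651 to 1944 in intensity). Control and outlier-flagged spots (128 to 217 per array) were left out, and probes well above background on at least 4 of 8 arrays were kept, 26066 of 39429. The RefSeq gene table named 27427 probes by accession. A gene took its brightest kept probe. The fit used limma 3.58.1 under R 4.3.3 (two-sided, Benjamini-Hochberg), and pairs of related enzymes with exact permutation tests. The limma fit was tested on simulated data with independent noise, which leaves out deviations shared within a slide. Precision is limited by the number of arrays.

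The members, the gene lists and the pairs of related enzymes were chosen with earlier results of these data known. The pair tests use the same arrays and levels as the limma fit, so they are not independent of it. All members were named, with up to 4 genes of each fatty acid list by smallest p. Genes of these lists that passed only at a dimmer probe were named as well, and so was Acss1. Same-numbered fasted and fed arrays deviated together (r 0.18 to 0.29), but they also share a slide and neighbouring positions. Differently numbered fasted and fed arrays of the same slide had r of 0.051 to 0.27. Pairing by replicate number is therefore given by neither the labels nor these values, and the replicate block is an alternative. Other alternatives were background correction, scaling, filter, outlier spots, the authors' table, slide as a block, each slide alone and each array left out.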

Additional observations from a re-analysis of the deposited data

Results flagged for a closer look

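Of 70 groups of 4 arrays examined, 5 held an array far from the other 3, and chance alone flags about 5% of groups. Acacb read -2.14 in fed replicate 2, the other fed arrays lying between -2.42 and -2.37. Scd2 read 5.34 in fasted replicate 3, the other fasted arrays lying between 5.25 and 5.26. The dimmest Me1 probe read 0.17 in fasted replicate 2 (others 0.26 to 0.27) and 0.40 in fed replicate 1 (others at 0.34). Mid1ip1 read 3.08 in fasted replicate 1, the other fasted arrays lying at 3.13.

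Without fed replicate 2, Acacb differed by 0.53 at an adjusted p of 0.00521.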

How the results depend on the processing

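Acacb and Elovl6 kept their direction and passed limma under every alternative that used both slides. Their adjusted p ranged over 0.00359 to 0.0278 and 0.0014 to 0.0151. Within either slide alone 0 genes passed in limma, members and other fatty acid genes included, although 3526 genes on slide 1 and 2351 on slide 2 had an unadjusted p under 0.05. Genes higher in fasted brain numbered 915 with normexp background correction and 814 with no filter. Genes lower numbered 919 with median scaling and 739 with no filter. Leaving out 1 array gave 927 to 1177 higher and 862 to 1260 lower. Members lower numbered 2 with the mean of a gene's probes (Me1 added), and 1 to 2 with 1 array left out, Elovl5 being added without fasted replicate 3 and Fasn without fed replicate 3. Other fatty acid genes lower numbered 2 with median scaling, 1 with no filter and 1 to 4 with 1 array left out.

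The change of Acacb against Acaca was 0.42 with slide as a block (adjusted p 0.0833), 0.42 with the replicate block (0.188), 0.32 with normexp (0.0857), 0.44 and 0.41 within the slides and 0.38 to 0.49 with 1 array left out. That of Elovl6 against Elovl5 was -0.23 (0.0833), -0.23 (0.188), -0.21 (0.129), -0.15 and -0.31, and -0.27 to -0.13. Neither pair passed the exact test after adjustment with any 1 array left out. Blocked and single-slide designs cannot reach 0.05 in these exact tests, so their p-values say nothing on stability. Over 3 pairs, a pair passes only if another pair also reaches the smallest p, so each call depends on the other. With normexp, the adjusted 0.0857 is what that smallest p gives when no other pair reaches it. Why Elovl6 against Elovl5 then fell short was not tested. Scd2 against Scd1 was -0.0035 within slide 1. Within slide 2, Srebf1 was 0.01 and the dim Acly probe 0.0025. The Acaca probe placed on chromosome 12 was -0.0024 to 0.04 with 1 array left out. The replicate block ended no member's call and, at the brightest probes of the other named genes, those of Fads2 and Mbtps1. The filter settings do not alter the paired values and were not run for them.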
